A study of Mus musculus with 14 samples.

Results

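The genes described here are those that build the matrix tumour cells sit in and those that let cells hold it: fibronectin, the collagens, the laminins and the integrins. They were chosen by symbol (Fn1, Col with a chain number, Lama, Lamb or Lamc with a digit, and Itga or Itgb with digits or a letter), pseudogenes were left out, and a mean of at least 1 count-per-million (CPM) was required in at least 1 of the 6 groups. Of 34866 gene identifiers measured, 81 matched the symbols and 54 also reached the level: 28 of 44 collagens, 9 of 11 laminins, 16 of 25 integrins and Fn1. In CT26 40 of the 54 reached 1 CPM in either group, in E0771 38 and in MC38 43, and 23 did so in all 6 groups. Col28a1 and Lamc3 reached it only in a RIG-I agonist group, and Itgae only in a control group. Just inside the level were Itgae at 1.06 CPM (MC38 control) and Lamc3 at 1.07 CPM (E0771 RIG-I agonist). Just outside it were Col14a1 at 0.815 CPM (CT26 control) and Itgad at 0.814 CPM (MC38 control).

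Collagens, laminins and fibronectin are secreted proteins. Fibrillar collagens form tensile fibres, type IV collagens and laminin trimers form the basement membrane under epithelia, and fibronectin links both kinds of network to cells. Integrins are paired alpha and beta subunits in the cell membrane that bind these proteins outside and the actin cytoskeleton inside, and the pair decides the ligand. Tumour cells of epithelial origin often make part of this matrix themselves, and their integrins are known for their part in adhesion, migration and survival.

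RNA was sequenced from 3 mouse tumour cell lines, plated at 100000 cells per well and exposed for 24 h to 0.5 ug/ml of either an agonist of RIG-I or its control agonist. RIG-I is a cytosolic sensor of viral RNA, and the study's title places the question in its activation inside tumour cells. CT26 is a colorectal carcinoma line of BALB/c mice, E0771 a mammary cancer line from a spontaneous tumour of a C57BL/6 mouse, and MC38 a colon adenocarcinoma line of C57BL/6 mice. CT26 and E0771 were grown in RPMI and MC38 in DMEM, each with 10% fetal bovine serum, so line cannot be told apart from strain where CT26 is compared, or from medium where MC38 is compared. The library names of E0771 and MC38 share a prefix that those of CT26 lack. What it marks is not given, and line cannot be told apart from it where CT26 is compared. The 6 groups were control agonist and RIG-I agonist in CT26 (3 libraries each), in E0771 (2 each) and in MC38 (2 each). No genotype or transgene is given for any line, each line is 1 culture model without other host cells, and no untreated cells were analysed here.

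The CT26 libraries held 32826742 to 40564102 counts, those of E0771 12413347 to 13399247 and those of MC38 12347361 to 18964563. The labels do not state whether replicates were grown as separate cultures. The p-values therefore reflect how far these libraries differ among themselves, and that may be technical. That spread differed between lines: the biological coefficient of variation, which is the spread between replicates beyond counting error, was 0.03 for MC38, 0.102 for CT26 and 0.202 for E0771. In E0771 the 2 libraries of a group stood further apart than in the other lines, and summed over the 28 collagens its control replicates held 2692 and 4154 CPM. Of lists of markers for other cells, leukocyte genes summed to 3.33 to 4.35 CPM in CT26 control and 5.41 to 5.53 with the RIG-I agonist, with 1 and 2 of 8 genes at 1 CPM. In E0771 they summed to 12.7 to 16.8 and 10.0 to 16.5 CPM, and in MC38 to 6.21 to 6.88 and 4.62 to 5.37 CPM, with 2 of 8 at 1 CPM in each. Adgre1 and Cd3e, which mark macrophages and T cells, were at 0 in the controls of all 3 lines. Endothelial genes summed to 1.55 to 2.63 CPM in CT26 control, 8.87 to 16.0 in E0771 control and 11.6 to 16.3 in MC38 control, with 1, 2 and 2 of 6 genes at 1 CPM. Of 8 epithelial genes, Epcam was at 0 in the controls of every line and 1 reached 1 CPM in CT26 control and 1 in E0771 control. Krt18 was at 22.7 ± 2.38 CPM (SD, n = 3) in CT26 control and Krt8 at 250 ± 39.1 (SD, n = 2) in E0771 control. None of the 8 reached 1 CPM in MC38, and of 7 intestinal genes Cdh17 alone did so in CT26 control and none in MC38 control. Of 8 mammary genes Esr1 alone reached 1 CPM in E0771 control, and 1 did so in CT26 control and 2 in MC38 control. They summed to 1.32 to 2.22 CPM in E0771 control, less than the 13.2 to 16.5 of CT26 control and 9.45 to 10.4 of MC38 control. The mammary list therefore did not set E0771 apart as the mammary line. Of 8 fibroblast genes 3 reached 1 CPM in CT26 control, 2 in E0771 control, where Dcn, Lum and Postn were at 0, and 3 in MC38 control. Among them the receptors Pdgfra and Pdgfrb were at 6.29 ± 0.513 and 53.5 ± 4.0 CPM in CT26 control, 115 ± 17 and 65.6 ± 10.4 in E0771 control and 58.9 ± 1.80 and 8.65 ± 0.238 in MC38 control.

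The type IV collagen genes lie head to head in pairs, and their levels differed between lines within a pair, so their promoters are shown first. Col4a1 (ENSMUSG00000031502.11, chr8:11198423-11312826, minus strand) and Col4a2 (ENSMUSG00000031503.13, chr8:11312805-11449287, plus strand) start 21 bp apart and overlap by 22 bp in the GENCODE M21 annotation of GRCm38. Col4a5 (ENSMUSG00000031274.16, chrX:141475385-141689234, plus strand) and Col4a6 (ENSMUSG00000031273.16, chrX:141165403-141474076, minus strand) start 1309 bp apart and do not overlap. The windows below run from 250 bases before to 50 bases after a RefSeq gene start on GRCm38.p6, 5′ to 3′ on the gene's own strand. They lie at chr8:11312777-11313076 (Col4a1), chr8:11312555-11312854 (Col4a2), chrX:141475169-141475468 (Col4a5) and chrX:141474027-141474326 (Col4a6). Capitals mark CCAAT boxes (CCAAT or ATTGG) and GC boxes (GGGCGG or CCGCCC).
Col4a1: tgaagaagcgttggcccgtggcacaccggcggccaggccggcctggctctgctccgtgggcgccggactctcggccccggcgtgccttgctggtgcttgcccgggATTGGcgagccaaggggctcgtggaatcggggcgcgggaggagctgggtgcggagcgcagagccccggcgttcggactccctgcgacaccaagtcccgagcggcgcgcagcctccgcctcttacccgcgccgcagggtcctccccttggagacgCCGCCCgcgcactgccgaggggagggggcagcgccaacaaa
Col4a2: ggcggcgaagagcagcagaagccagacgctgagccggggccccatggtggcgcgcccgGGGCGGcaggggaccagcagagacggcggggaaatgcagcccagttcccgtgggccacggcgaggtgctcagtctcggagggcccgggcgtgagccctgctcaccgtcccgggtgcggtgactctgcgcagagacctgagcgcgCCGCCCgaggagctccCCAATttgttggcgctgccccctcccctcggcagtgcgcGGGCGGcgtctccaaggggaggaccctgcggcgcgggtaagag
Col4a5: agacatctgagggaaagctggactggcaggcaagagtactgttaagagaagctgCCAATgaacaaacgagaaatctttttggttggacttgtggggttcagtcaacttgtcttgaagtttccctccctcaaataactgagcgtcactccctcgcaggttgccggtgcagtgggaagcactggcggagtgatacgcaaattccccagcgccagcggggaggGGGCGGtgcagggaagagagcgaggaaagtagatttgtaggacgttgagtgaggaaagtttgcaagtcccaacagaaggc
Col4a6: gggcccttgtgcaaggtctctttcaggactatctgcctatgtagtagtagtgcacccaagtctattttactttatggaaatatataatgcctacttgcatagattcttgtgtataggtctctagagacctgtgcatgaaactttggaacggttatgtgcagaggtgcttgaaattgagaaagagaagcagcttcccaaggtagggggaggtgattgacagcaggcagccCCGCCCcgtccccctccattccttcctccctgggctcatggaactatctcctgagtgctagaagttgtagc
The windows of Col4a1 and Col4a2 share 78 bp and were 74.0% and 73.7% G or C. Those of Col4a5 and Col4a6 were 52.7% and 48.3%. Col4a1, Col4a2 and Col4a5 each held 1 CCAAT box and Col4a6 held none, and all 4 held at least 1 GC box, with 3 in Col4a2.

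RefSeq windows were found for 37 of the 54 genes. Among the others were Fn1, Col1a1, Col2a1, Col5a2, Col9a3, Col12a1, Itga6, Itga7, Itgae, Itgal, Itgb2, Itgb3, Itgb4, Lama3, Lamc1 and Lamc3. GC boxes stood in 25 of the 37 (67.6%) and in 38.2% of all 27025 symbols with a window. CCAAT boxes stood in 13 (35.1%) against 41.1%, and TATA boxes (TATAAA or TTTATA) in 2 (5.41%, Col11a2 and Col3a1) against 15.7%. The 42 windows of these genes were also richer in G or C, with a median of 59.2% against 52.7% over all windows. The part of base content in these shares was not tested. The ISRE, an interferon response motif that IRF factors bind, was searched as TTTC, any 2 bases and TTTC, or GAAA, any 2 bases and GAAA on the other strand, and was in that of Itga3 only (2.7% against 3.99%). The AP-1 motif TGANTCA, also its own reverse complement, was in Col6a1 and Itga3 (5.41% against 8.97%). The Itga3 window that held the ISRE lies at chr11:95076665-95076964 on the minus strand and is shown with the motif in capitals. Itga3 is the 1 member with this interferon motif among the 37 searched, and the other 17 had no window.
Itga3: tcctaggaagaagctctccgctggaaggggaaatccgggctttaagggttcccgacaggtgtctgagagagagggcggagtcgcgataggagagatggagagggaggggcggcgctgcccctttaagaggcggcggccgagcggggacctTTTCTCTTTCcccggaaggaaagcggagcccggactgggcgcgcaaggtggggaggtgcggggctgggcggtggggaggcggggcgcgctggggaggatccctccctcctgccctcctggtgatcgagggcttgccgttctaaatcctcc
A match says that the letters are present, and not that a factor binds there.

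The first comparison was between lines at baseline, over the control agonist libraries. CT26 had the highest message levels of Fn1, Col1a1 and Col1a2, although Fn1 was also high in MC38 and Col1a1 was present in E0771. E0771 had the highest levels of Col6a1 and Col6a2 and no count of Col4a5, while Col6a3 was highest in MC38. Only MC38 held message of all 4 type IV chains of the set. CT26 had the highest mean control level for 15 of the 54 genes, E0771 for 18 and MC38 for 21. For 16 genes the highest line exceeded the lowest over 100-fold or the lowest line was at or below the floor of 3 counts over the group, and 7 genes lay within 2-fold in all 3 lines. In edgeR's quasi-likelihood fit of all 14 libraries, 39 of 54 genes differed between CT26 and E0771 (18 higher in CT26 and 21 lower, where 70.3% of all 14657 genes were called, 37.2% higher and 33.1% lower). Between CT26 and MC38 44 differed (17 higher in CT26 and 27 lower, background 73.6%, with 37.8% higher and 35.8% lower), and between E0771 and MC38 39 did (14 higher in E0771 and 25 lower, background 64.1%, with 31.5% higher and 32.6% lower). At 4-fold or more 24 of 54 were called between CT26 and E0771 (background 21.9%), 12 higher in CT26 (13.2%) and 12 lower (8.66%). Between CT26 and MC38 25 were (background 21.6%), 10 higher in CT26 (10.7%) and 15 lower (10.9%). Between E0771 and MC38 22 were (background 18.3%), 8 higher in E0771 (6.71%) and 14 lower (11.6%). These 3 comparisons share control groups with each other.

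Fn1 (ENSMUSG00000026193.15, chr1:71585520-71653200), the fibronectin gene, was at 1527, 1187 and 1182 CPM in the CT26 control libraries and at 809 and 855 in those of MC38. In E0771 control it was at 0.233 and 0.164 CPM, which were 3 and 2 counts. CT26 exceeded E0771 by 12.74 on the log2 scale (SE 0.23, edgeR adjusted p = 1.08e-13), and E0771 minus MC38 was -12 (adjusted p = 6.63e-13). E0771 therefore held almost no fibronectin message, in any of its 4 libraries. On a scale of CPM per kb of exon, Fn1 ranked 2nd of the 54 in CT26 control at 111 and 4th in MC38 at 71.2. Ranks on this scale depend on the exon length given to each gene, such as 12426 bp for Col1a2 and 6563 bp for Col1a1. Each edgeR SE, here and below, is the size of the log2 value over the square root of edgeR's F statistic. It is thus derived from the test and can be too small where a group holds few counts, as E0771 did for Fn1.

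Among the fibrillar collagens, Col1a2, one chain of type I collagen, was at 1416, 1197 and 1114 CPM in CT26 control, 0.233 and 0.164 in E0771 and 1.74 and 2.22 in MC38. CT26 stood above both other lines with no overlap, by 12.68 over E0771 (edgeR adjusted p = 1.70e-13) and 9.40 over MC38 (adjusted p = 5.94e-13) on the log2 scale. Col1a1, the other type I chain, did not follow the same order: 141 ± 24.2 CPM in CT26 (SD, n = 3), 56.7 ± 37.4 in E0771 and 3.22 ± 0.538 in MC38 (SD, n = 2 each). In CPM per kb CT26 control held 100 of Col1a2 and 21.5 of Col1a1. Col5a3 was at 0.346 ± 0.193 CPM in CT26, 104 ± 10.7 in E0771 and 35.7 ± 0.984 in MC38, and Col5a1 was at 107 ± 16.7, 465 ± 113 and 432 ± 23.0. Col11a1 was at 18.8 and 19.3 CPM in MC38 control, against 1, 2 and 1 counts in the CT26 control libraries and 1 and 0 in those of E0771. MC38 exceeded E0771 in Col11a1 counts by a ratio of 477 (exact 95% interval 85.3 to 18879, counting error only).

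Type IV collagen forms the sheet of the basement membrane, and its partner chains followed the head-to-head pairs only in part. Col4a1 was at 181, 158 and 142 CPM in CT26 control, 633 and 716 in E0771 and 571 and 604 in MC38, and Col4a2 at 117, 102 and 92.0, 276 and 271, and 362 and 398. CT26 was the lowest for both. Col4a5 was at 72.9, 69.9 and 69.6 CPM in CT26 and 96.7 and 101 in MC38, and had no count in any of the 4 E0771 libraries. Against a floor of 3 counts over the E0771 control group, Col4a5 was at least 591-fold higher in CT26 and at least 825-fold higher in MC38. Its neighbour Col4a6 was at 27.5 and 27.9 CPM in MC38 control and at 0 in the controls of CT26 and E0771, so that MC38 was at least 1060-fold and at least 231-fold higher. CT26 thus transcribed Col4a5 without Col4a6 at its depth, with 2 and 1 counts of Col4a6 in 2 of the 3 RIG-I agonist libraries. Strand use in counting is not given in the sources used here, so reads over the 22 bp shared by Col4a1 and Col4a2 could go to either gene.

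Type VI collagen forms beaded filaments near the cell surface. Col6a1 (ENSMUSG00000001119.7, chr10:76708792-76726168) was at 10.7, 10.6 and 9.16 CPM in CT26 control, 588 and 1250 in E0771 and 93.9 and 91.8 in MC38. Col6a2, its obligate partner 85161 bp away, was at 0.527, 0.595 and 0.599 CPM in CT26, 273 and 741 in E0771 and 32.7 and 29.7 in MC38. Both were highest in E0771, lowest in CT26 and more than 2-fold apart between the 2 E0771 control libraries. Col6a3 had another order and was at 76.8 ± 0.954 CPM in MC38, 7.58 ± 2.59 in E0771 and 0.787 ± 0.133 in CT26. In CPM per kb, Col6a1 was the most abundant of the 54 genes in E0771 control, at 210. Col7a1, which forms anchoring fibrils, was at 6.82 ± 0.238 CPM in CT26, 37.9 ± 0.347 in E0771 and 113 ± 8.70 in MC38. Col8a1, a short chain network collagen, was at 159 ± 4.11 CPM in CT26, 19.2 ± 1.0 in MC38 and 2 and 0 counts in the E0771 control libraries.

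Laminins are trimers of an alpha, a beta and a gamma chain. Lamb1 (ENSMUSG00000002900.16, chr12:31265234-31329644) was at 332, 276 and 272 CPM in CT26 control and 337 and 349 in MC38, against 1.4 and 0.493 in E0771. CT26 exceeded E0771 by 8.36 on the log2 scale (SE 0.26, edgeR adjusted p = 1.54e-11), and E0771 minus MC38 was -8.49 (SE 0.26, adjusted p = 4.30e-11). The other broad basement membrane chains were present in all 3 lines: Lama5 at 179 ± 25.8, 227 ± 22.3 and 423 ± 19.1 CPM, Lamb2 at 47.3 ± 4.48, 83.3 ± 13.6 and 106 ± 5.26, and Lamc1 at 308 ± 35.3, 365 ± 28.7 and 597 ± 21.9, in CT26, E0771 and MC38. In E0771 the beta chain message was therefore nearly all Lamb2. Lama3, an alpha chain of epithelial basement membrane, was at 7.55 ± 0.943 CPM in CT26, 0.0799 ± 0.00308 in E0771 and 0.814 ± 0.151 in MC38. Lamb3 stayed between 0.510 and 1.85 CPM in the 3 control groups. Lama2 was at 3.74 ± 0.165 CPM in CT26 and at 2 counts over the E0771 control group and 3 over that of MC38.

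Itgb1 (ENSMUSG00000025809.15, chr8:128685654-128733200), the beta subunit shared by most matrix-binding integrins, was the most abundant of the 54 genes per kb in CT26 (197 CPM per kb) and MC38 (301) and 2nd in E0771 (150). Of its alpha partners, Itga6, which binds laminin, was at 182 ± 13.5 CPM in CT26, 250 ± 12.6 in E0771 and 137 ± 4.67 in MC38. Itga5, the fibronectin receptor subunit, was at 74.4 ± 5.0, 127 ± 3.19 and 74.3 ± 0.0284 CPM, and so was highest in the line with almost no Fn1 message. Itgav was at 77.2 ± 8.13, 68.0 ± 16.8 and 225 ± 5.25 CPM and Itgb5, one of its partners, at 147 ± 5.09, 70.4 ± 10.8 and 137 ± 0.192. CT26 and E0771 overlapped for Itgav. Collagen-binding Itga1 was at 1.83 ± 1.17, 38.8 ± 17.3 and 16.9 ± 0.320 CPM, and Itgb3, a subunit for arginine-glycine-aspartate ligands, at 0.0345 ± 0.0132, 4.87 ± 2.35 and 0.237 ± 0.119. Integrins typical of leukocytes were scattered over the lines: Itgb7 was at 113 ± 6.83 CPM in CT26, 18.9 ± 16.1 in E0771 and 3.17 ± 0.395 in MC38, and Itgal at 0.0179 ± 0.0155, 1.05 ± 0.379 and 9.80 ± 0.678. Ptprc, the common leukocyte antigen, was at 0.174 ± 0.0347, 0.194 ± 0.275 and 0.570 ± 0.170 CPM in the same groups, and its part in these levels was not tested.

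**Figure D1:**
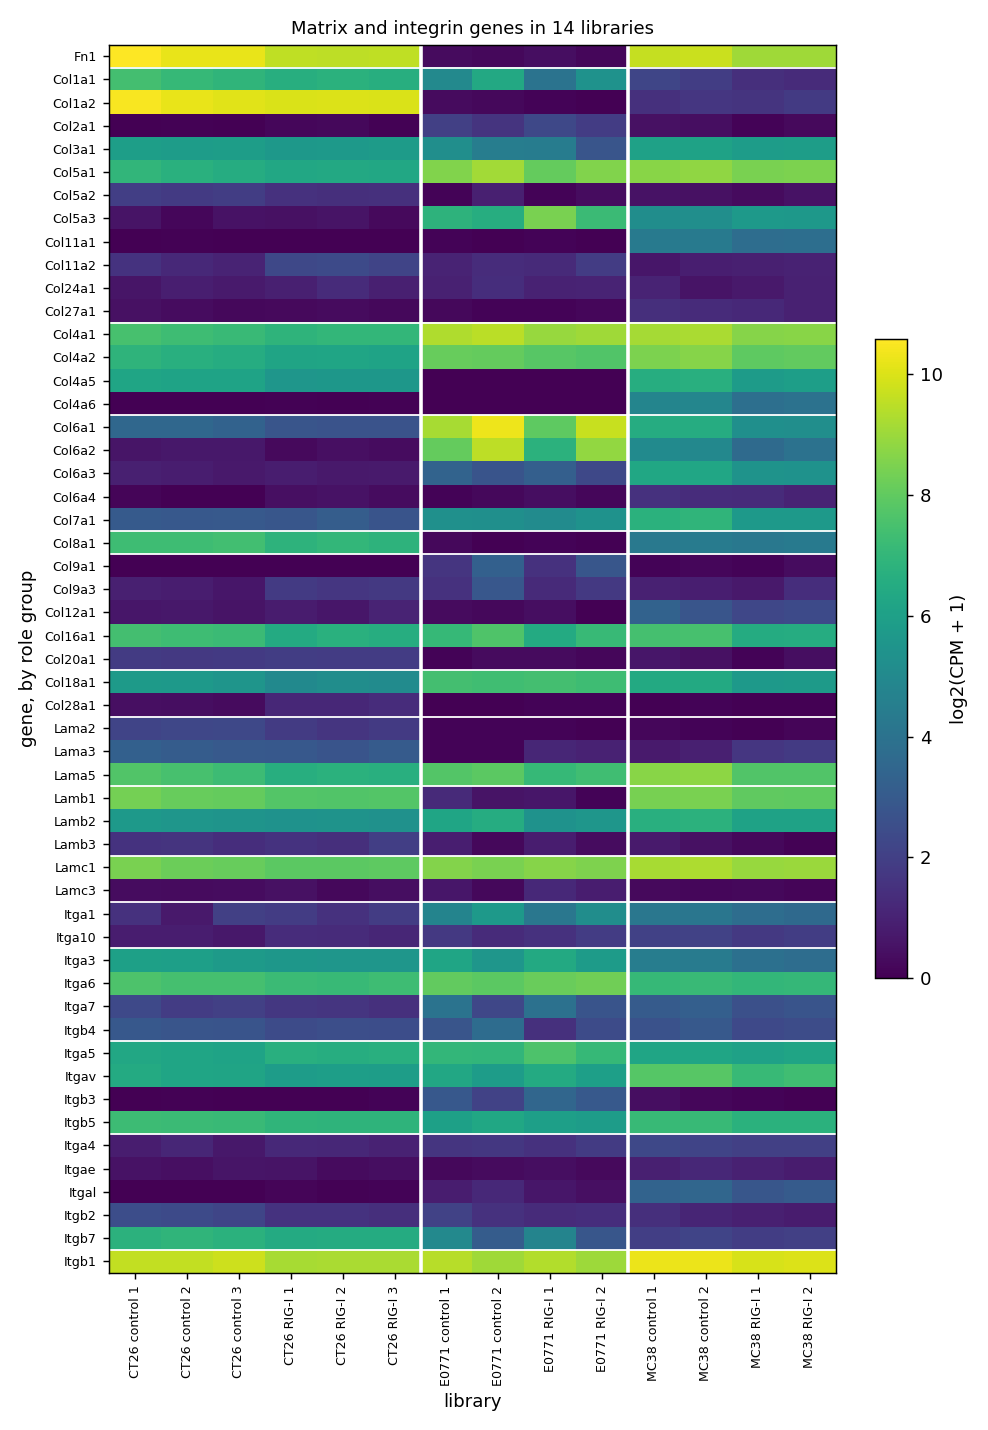
Level of genes of the set (vertical axis, by role group) in each of the 14 libraries (horizontal axis) as log2(CPM + 1) in colour. Fn1 is dark in all 4 E0771 libraries, Col4a6 is coloured in MC38 and dark in the other lines.

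**Figure D2:**
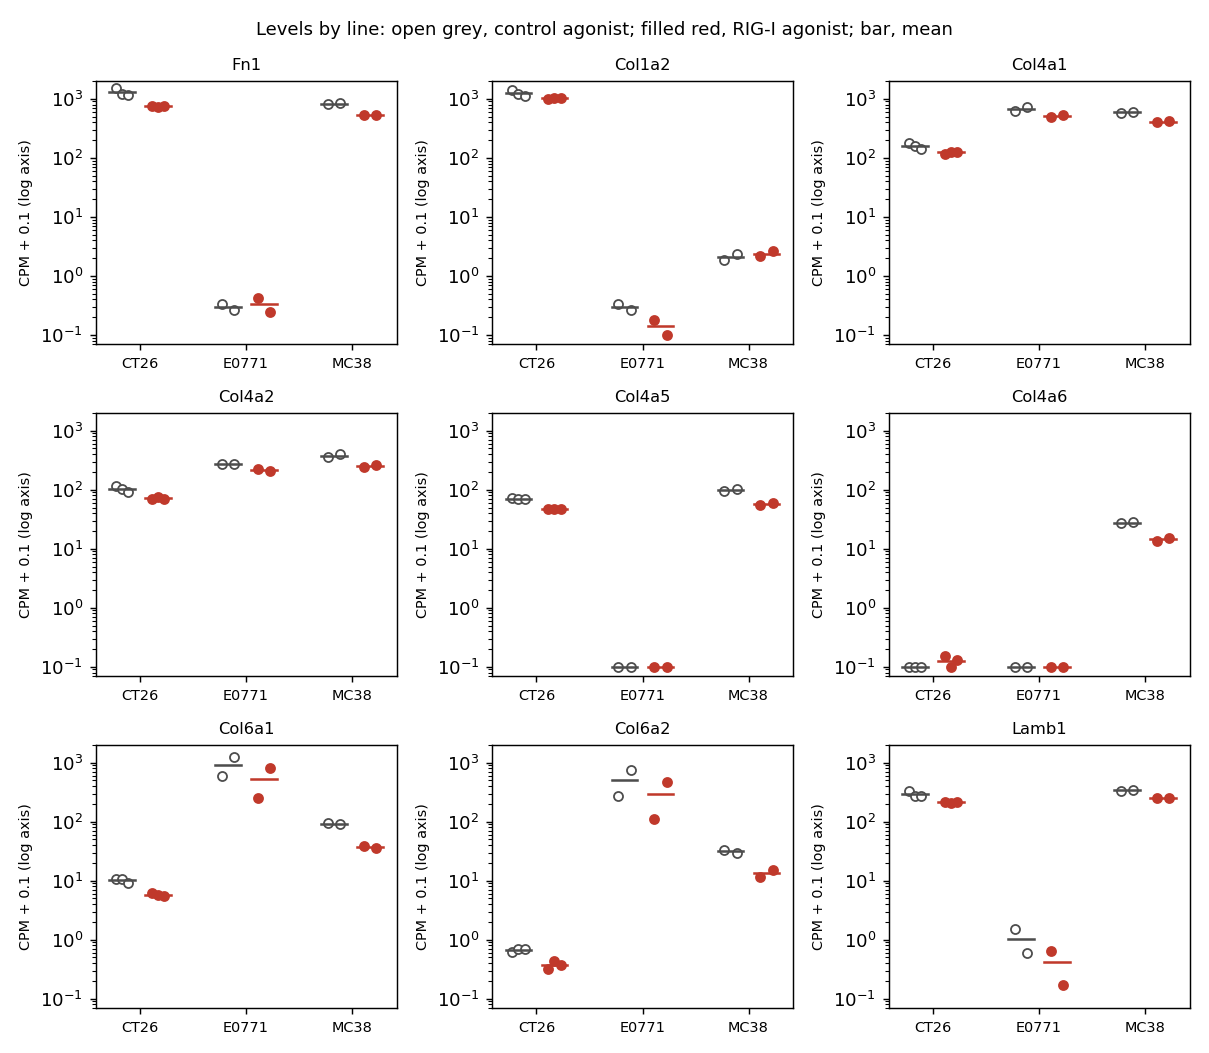
Levels of 9 genes in each library as CPM + 0.1 on a log axis, by line, with open grey points for the control agonist, filled red points for the RIG-I agonist and a bar at the mean. E0771 sits near the bottom for Fn1, Col1a2, Col4a5 and Lamb1 and at the top for Col6a1 and Col6a2.

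The second comparison asked which of these genes changed with the RIG-I agonist in CT26. Matrix and integrin transcripts fell more often than they rose, by modest amounts. The low-count filter was passed by 47 of the 54 genes and edgeR called 33 of them (the background over 13893 genes was 38.4%). Of these 27 were lower (background 18.6%) and 6 higher (background 19.8%), with a median log2 fold change of -0.32 over the 47 against 0.00 over all genes tested. The agonist groups did not overlap for 36 of the 47, where this held for 51.4% of all genes. Among the 14 genes tested but not called were Col3a1, Col5a3, Col6a3, Col7a1, Col12a1, Col20a1, Col24a1, Itga1, Itga4, Itgae, Lama3, Lamb3 and Lamc3. Not tested were Col2a1, Col4a6, Col9a1, Col11a1, Col27a1, Itgal and Itgb3. Summed over the 54 genes, the control libraries held 6579, 5728 and 5608 CPM and the RIG-I agonist libraries 4333, 4395 and 4407. The groups did not overlap, and replicate 1 was the highest of the controls. In bulk RNA, less message per cell and fewer cells that make it cannot be told apart. Beside these falls, Pdgfra and Pdgfrb also fell, from 6.29 ± 0.513 to 4.97 ± 0.153 CPM and from 53.5 ± 4.0 to 40.0 ± 1.22 (SD, n = 3), while Fap, another fibroblast marker, rose from 0.341 ± 0.0974 to 2.05 ± 0.301. These were the calls among 6 fibroblast genes tested. Of the 8 fibroblast genes 5 reached 1 CPM with the RIG-I agonist and 3 in controls, and they summed to 51.2 to 53.4 against 63.6 to 68.8 CPM. Intestinal genes summed to 1.98 to 2.30 CPM in controls and 6.33 to 6.72 with the RIG-I agonist, and endothelial genes to 1.55 to 2.63 and 3.66 to 4.15. Their part in the result was not tested.

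Fn1 fell in CT26 from 1527, 1187 and 1182 CPM in controls to 760, 732 and 763 with the RIG-I agonist. Every RIG-I agonist library was below every control, and the controls were the more spread of the groups. This was a 1.73-fold fall (log2 -0.79, SE 0.09, edgeR adjusted p = 2.28e-05).

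Of the 23 collagens tested in CT26, 12 fell and 4 rose. All 3 type IV chains tested were among those that fell: Col4a1 (log2 -0.38), Col4a2 (-0.53) and Col4a5 (-0.57, from 72.9, 69.9 and 69.6 to 46.7, 48.0 and 48.0 CPM, edgeR adjusted p = 3.68e-06). Col16a1, a fibril-associated collagen, went from 170, 158 and 149 to 87.4, 105 and 95.4 CPM (log2 -0.73, SE 0.07, adjusted p = 3.11e-06). Every RIG-I agonist library was below every control. Col6a1 fell from 10.7, 10.6 and 9.16 to 6.00, 5.59 and 5.44 CPM (log2 -0.84, adjusted p = 1.76e-05), and Col6a2 from 19, 24 and 23 counts in the controls to 8, 13 and 9. Col6a2 passed the low-count filter through the controls with part of the RIG-I agonist libraries. Its call (-1.06, adjusted p = 0.0215) was lost without control replicate 2 (adjusted p = 0.0724), RIG-I agonist replicate 1 (0.112) or RIG-I agonist replicate 3 (0.0618), and with DESeq2 (0.1). Both chains of type I collagen fell: Col1a1 by 0.48 and Col1a2 by 0.29 on the log2 scale. Without RIG-I agonist replicate 1 neither call held (edgeR adjusted p = 0.0527 and 0.0597). Col5a1 (-0.39), Col5a2 (-0.61), Col8a1 (-0.43) and Col18a1 (-0.56), the gene that yields endostatin, also fell.

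The collagens that rose in CT26 were all low ones. Col9a3, a chain of a cartilage fibril-associated collagen, went from 0.888, 0.819 and 0.547 to 2.45, 2.16 and 2.37 CPM (log2 1.63, SE 0.23, edgeR adjusted p = 8.63e-05). Col11a2 went from 1.91, 1.34 and 1.09 to 3.84, 4.25 and 3.54 CPM (1.42, SE 0.20, adjusted p = 9.85e-05). Col28a1 went from 0.361, 0.323 and 0.234 to 1.23, 1.24 and 1.53 CPM (2.11, SE 0.28, adjusted p = 5.68e-05). It is in the set only through its RIG-I agonist level and passed the low-count filter through the RIG-I agonist libraries with part of the controls, so its difference is bound up with how it was chosen. In these 3 genes the lowest RIG-I agonist library was above the highest control. Col6a4 passed the low-count filter through its RIG-I agonist libraries only, with 4, 1 and 1 counts in controls and 13, 16 and 9 with the RIG-I agonist, so its difference (2.64, adjusted p = 0.00320) is bound up with the filter.

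Of the 9 laminins tested in CT26, 5 fell and none rose. Lama5 (ENSMUSG00000015647.9, chr2:180176373-180225859), the alpha chain of most adult basement membranes, fell from 205, 179 and 153 to 99.3, 106 and 101 CPM. It was 1.75-fold lower (log2 -0.81, SE 0.09, edgeR adjusted p = 0.000140) with no overlap. Lama2 (-0.64), Lamb1 (-0.47), Lamc1 (-0.34) and Lamb2 (-0.20, adjusted p = 0.0408) also fell. Lama3 was at -0.24 (adjusted p = 0.133) and Lamb3 at 0.22 (0.448), and neither was called.

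Of the 14 integrins tested in CT26, 9 fell and 2 rose. Itgb1 went from 768, 772 and 873 to 592, 599 and 598 CPM (log2 -0.43, SE 0.07, edgeR adjusted p = 0.000245). All 4 laminin-binding subunits fell: Itga3 (-0.37), Itga6 (-0.30), Itga7 (-0.66) and Itgb4 (-0.42). The Itga7 call was lost without control replicate 1 (adjusted p = 0.0642). Itgav (-0.41), Itgb5 (-0.32) and Itgb7 (-0.34) fell as well. Itgb2, the beta subunit of leukocyte integrins, fell from 4.69, 4.17 and 3.59 to 1.95, 1.96 and 1.71 CPM, which was 2.21-fold. Itga5 rose, from 79.9, 73.4 and 70.0 to 100, 94.4 and 102 CPM (1.33-fold, log2 0.41, SE 0.06, adjusted p = 0.000218), so the alpha and beta subunits of the main fibronectin receptor moved apart. Itga10, a collagen-binding subunit, rose from 0.741 ± 0.101 to 1.41 ± 0.192 CPM (0.93, adjusted p = 0.00716). Calls at 2-fold or more numbered 6 of 47 (Col6a4, Col28a1, Col9a3, Col11a2, Itgb2 and Col6a2), where 6.67% of all genes were so called. In 1 fit of all 14 libraries, with a spread shared by the lines, 22 were called, and Col6a1 (adjusted p = 0.195), Col6a2 (0.646), Col1a1 (0.332), Col5a2 (0.216), Lama2 (0.0641), Itga7 (0.279) and Itgb7 (0.568) were not.

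**Figure D3:**
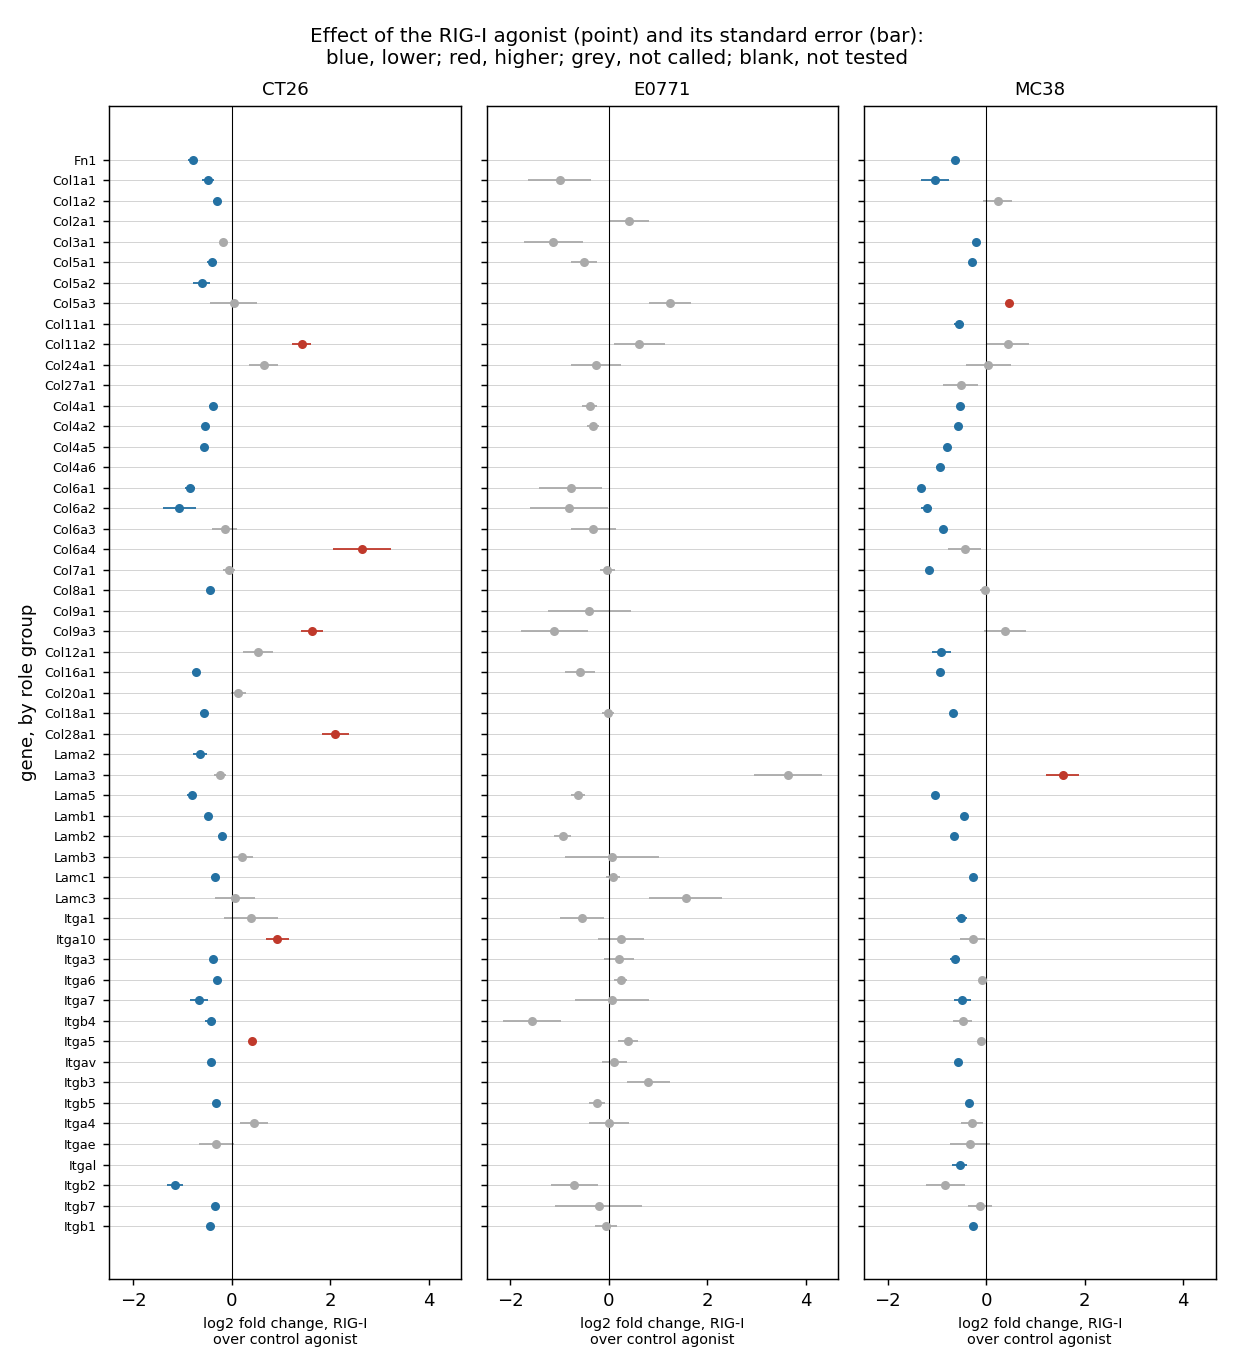
Log2 fold change of RIG-I agonist over control agonist (horizontal axis) for genes of the set (vertical axis, by role group) in each line. Bars show 1 SE as derived from edgeR's F statistic. Blue marks genes called lower, red those called higher and grey those not called. Genes not tested in a line are blank. CT26 and MC38 show 27 blue points each, and E0771 shows grey points with long bars.

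In MC38 the same comparison called 30 of the 45 genes tested (background 35.8% of 12387 genes). Of these 27 fell (background 16.9%) and 3 rose (background 18.9%), with a median log2 fold change of -0.49 over the 45 against -0.00 over all genes. The groups did not overlap for 39 of the 45, where this held for 67.2% of all genes. Called changes of 2-fold or more numbered 6 of 45 (background 3.07%): Col1a1, Col6a1, Col6a2, Col7a1 and Lama5 fell and Lama3 rose. Summed over the 54 genes, the controls held 6327 and 6581 CPM and the RIG-I agonist libraries 4549 and 4691. Tested but not called were Col1a2, Col6a4, Col8a1, Col9a3, Col11a2, Col24a1, Col27a1, Itga4, Itga5, Itga6, Itga10, Itgae, Itgb2, Itgb4 and Itgb7. Not tested were Col2a1, Col5a2, Col9a1, Col20a1, Col28a1, Itgb3, Lama2, Lamb3 and Lamc3. Pdgfra fell from 58.9 ± 1.80 to 36.7 ± 0.990 CPM and Pdgfrb from 8.65 ± 0.238 to 4.78 ± 1.71 (SD, n = 2), while Fap rose from a mean of 0.602 to one of 1.69 CPM (log2 1.49, SE 0.39). These were the calls among 5 fibroblast genes tested. The 8 fibroblast genes summed to 76.2 to 77.2 CPM in controls and 49.9 to 54.8 with the RIG-I agonist, with 3 and 4 at 1 CPM. Their part in the result was not tested.

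Fn1 fell in MC38 from 809 and 855 to 532 and 540 CPM, 1.55-fold (log2 -0.63, SE 0.03, edgeR adjusted p = 3.59e-12).

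Of the 23 collagens tested in MC38, 15 fell and 1 rose. Col6a1 and Col6a2 had the largest falls of them: Col6a1 went from 93.9 and 91.8 to 38.0 and 36.2 CPM, 2.51-fold (log2 -1.33, SE 0.06, edgeR adjusted p = 3.49e-14). Col6a2 went from 32.7 and 29.7 to 11.5 and 15 CPM (-1.21, adjusted p = 7.80e-08), and Col6a3 from 77.5 and 76.2 to 42.1 and 41.5 (-0.88, adjusted p = 5.07e-11). In each, both RIG-I agonist libraries were below both controls. Col7a1 (ENSMUSG00000025650.12, chr9:108953586-108984875) went from 107 and 120 to 50.2 and 50.8 CPM, 2.24-fold (-1.16, SE 0.06, adjusted p = 5.86e-13). All 4 type IV chains fell: Col4a1 (-0.53), Col4a2 (-0.58), Col4a5 (-0.79, from 96.7 and 101 to 54.3 and 59.4 CPM) and Col4a6 (-0.94, from 27.5 and 27.9 to 13.6 and 15 CPM). Col16a1 (-0.94, from 173 and 178 to 89.7 and 92.3 CPM), Col18a1 (-0.68), Col11a1 (-0.56), Col5a1 (-0.29) and Col3a1 (-0.21) fell. Col12a1 (-0.91) and Col1a1 (-1.04) fell from 7.45 ± 2.19 and 3.22 ± 0.538 CPM. Without control replicate 1 the adjusted p was 0.0843 for Col12a1 and 0.0972 for Col1a1. The Col1a1 call was also lost without RIG-I agonist replicate 2 (0.0735) and with DESeq2 (0.119). Col5a3 was the 1 collagen that rose, from 35.0 and 36.4 to 50 and 48.7 CPM (0.47, SE 0.07, adjusted p = 7.70e-06).

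Of the laminins tested in MC38, 4 fell. Lama5 fell from 410 and 437 to 205 and 207 CPM, 2.05-fold (log2 -1.04, SE 0.04, edgeR adjusted p = 2.13e-15). Lamb2 (-0.66), Lamb1 (-0.45) and Lamc1 (-0.28) also fell. Lama3 rose from 0.707 and 0.920 to 2.19 and 2.52 CPM (1.55, SE 0.34, adjusted p = 0.00114). Lamb3 held 16 counts in the controls and 3 with the RIG-I agonist and was not tested, a count ratio of 5.84 with a 95% interval of 1.67 to 31.3 (counting error only), in the opposite direction to Lama3.

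Of the 15 integrins tested in MC38, 7 fell and none rose. Itgb1 went from 1230 and 1224 to 989 and 1033 CPM (log2 -0.28, SE 0.03, edgeR adjusted p = 1.06e-06). Itga3 (-0.64), Itgav (-0.58, from 221 and 228 to 139 and 159 CPM), Itga1 (-0.51), Itga7 (-0.49) and Itgb5 (-0.36) fell. Itgal fell by 0.54 from 9.80 ± 0.678 CPM, a call lost without control replicate 2 (adjusted p = 0.0609) or RIG-I agonist replicate 1 (0.0745) and with DESeq2 (0.130). Itga5 was at -0.11 (adjusted p = 0.129) and Itga6 at -0.08 (0.141). In 1 fit of all 14 libraries 14 members were called in MC38, and Col6a1 (adjusted p = 0.182), Col6a2 (0.407), Col1a1 (0.642), Col12a1 (0.250), Col5a1 (0.437), Col5a3 (0.521), Lamc1 (0.135), Itga1 (0.684), Itga3 (0.142), Itgal (0.356), Itgav (0.0506) and Itgb1 (0.258) were among those that were not.

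CT26 and MC38 share no libraries, so their calls can be set beside each other. Of 41 members tested in both lines, 19 were lower in both, none was higher in both and none was called in opposite directions. The 19 were Fn1, Col1a1, Col4a1, Col4a2, Col4a5, Col5a1, Col6a1, Col6a2, Col16a1, Col18a1, Lama5, Lamb1, Lamb2, Lamc1, Itga3, Itga7, Itgav, Itgb1 and Itgb5. They were 46.3% of the 41, against 7.93% of 11539 genes tested in both. They made up 76.0% of the 25 members lower in CT26 and 79.2% of the 24 lower in MC38, where the shares over all genes were 38.2% and 47.0%. The members tested in both lines had a median mean level of 57.1 CPM and all genes 35.6, so tests of members had on average more counts behind them. Of the 19, 16 were tested in E0771, with a log2 fold change below 0 in 12 and above 0 in 4 (Itga3, Itga7, Itgav and Lamc1), and edgeR's fit within E0771 called none of them. Not all of the 19 shared calls held in 1 fit of all 14 libraries. There Col1a1, Col6a1 and Col6a2 lost their call in both lines and Itga7 in CT26. Col5a1, Lamb1, Lamc1, Itga3, Itgav and Itgb1 lost theirs in MC38. In CT26 the calls of Col1a1, Col6a2 and Itga7 were each also lost without certain single libraries. The 19 genes include both networks of basement membrane, the type IV chains and the laminin trimer of Lama5, Lamb1 or Lamb2 and Lamc1. They also include the Itgb1 and Itga3 subunits that bind laminin.

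**Figure D4:**
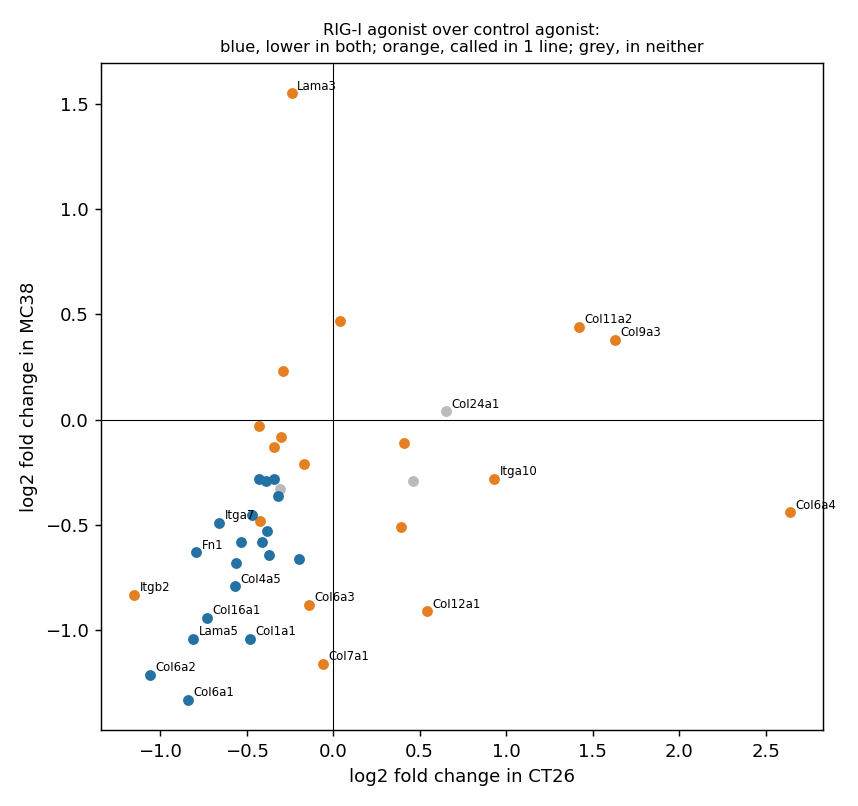
Log2 fold change of RIG-I agonist over control agonist in CT26 (horizontal axis) and MC38 (vertical axis), 1 point per gene shown. By the fits within each line, blue genes were called lower in both, orange genes were called in 1 line and grey genes in neither. The 19 blue genes lie in the lower left, and the genes that rose, such as Lama3 and Col9a3, rose in 1 line each.

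In E0771, 38 of the 54 genes passed the filter and edgeR's quasi-likelihood test called 0 of them (background 1.56% of 11728 genes, of which 1.53% were higher and 0.0256% lower, with 1.54% called at 2-fold or more). At an unadjusted p under 0.05 there were 8 of the 38, where 1242 of all 11728 genes were. DESeq2 called 3, with Lamb2 (adjusted p = 0.00174) and Lama5 (0.0309) among them. In 1 fit of all 14 libraries edgeR called 8. With same-numbered libraries treated as pairs, which no label states, it called 16 (4 higher and 12 lower). The median log2 fold change was -0.14 over the 38 and -0.01 over all genes. The groups did not overlap for 16 of the 38, where this held for 40.3% of all genes. Not tested were Fn1, Col1a2, Col4a5, Col4a6, Col5a2, Col6a4, Col8a1, Col11a1, Col12a1, Col20a1, Col27a1, Col28a1, Itgae, Itgal, Lama2 and Lamb1. The control libraries summed to 4767 and 6004 CPM over the 54 genes and the RIG-I agonist libraries to 4087 and 4747, so both RIG-I agonist libraries lay below both controls, the higher of them by little. A test that misses the threshold does not show that these genes were unaffected.

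Among the 8 genes at an unadjusted p under 0.05 were Lamb2, Lama3, Lama5, Col5a3, Col4a2, Itgb4 and Col4a1. Lamb2, nearly the only beta laminin of E0771, was at 73.7 and 93.0 CPM in controls and 40.4 and 46.3 with the RIG-I agonist (log2 -0.94, SE 0.17, edgeR adjusted p = 0.0994). Lama5 was at 212 and 243 and at 135 and 159 CPM (-0.63, SE 0.15, adjusted p = 0.221). For both genes every RIG-I agonist library was below every control. Col4a1 was at 633 and 716 and at 496 and 534 CPM (-0.39, SE 0.15, adjusted p = 0.467), and Col4a2 at 276 and 271 and at 225 and 208 (-0.33, SE 0.12, adjusted p = 0.447). Itgb4, the hemidesmosome partner of Itga6, was at 5.91 and 12.4 and at 1.74 and 4.39 CPM (-1.57, SE 0.59, adjusted p = 0.449). Lama3 had 1 count in each control library and 15 and 14 with the RIG-I agonist, a count ratio of 13.8 with a 95% interval of 3.49 to 119 (counting error only, adjusted p = 0.113). Lama3 and Lamc3 passed the filter through the RIG-I agonist libraries only, so any difference in them is bound up with the filter. Col5a3 was at 112 and 96.7 and at 346 and 145 CPM (1.24, SE 0.42, adjusted p = 0.391).

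Col6a1, the most abundant member of E0771 per kb, was at 588 and 1250 CPM in controls and 249 and 820 with the RIG-I agonist. The 2 libraries of each group stood further apart than the group means, and the fold change of -0.78 had an SE of 0.64 (log2, edgeR adjusted p = 0.784). With same-numbered libraries treated as pairs, which no label states, the Col6a1 change was -0.92 (SE 0.18, edgeR adjusted p = 0.0434). Col6a2 was at 273 and 741 and at 109 and 471 CPM (-0.81, SE 0.79). Col1a1 was at 30.3 and 83.2 and at 15.2 and 41.4 CPM (-1.0, SE 0.64). Itga7 and Itgb7 were as spread: Itga7 was at 15.2 and 3.78 CPM in controls and 14.4 and 5.71 with the RIG-I agonist. Itgb7 was at 30.3 and 7.56 CPM in controls and 26.7 and 6.08 with the RIG-I agonist. Itgb1 was at 696 and 530 and at 662 and 514 CPM (-0.06, SE 0.22), and Itgb3 at 6.53 and 3.20 and at 10.3 and 6.66 (0.80, SE 0.44). Itga6 was at 259 and 242 and at 282 and 311 CPM (0.24, SE 0.13, adjusted p = 0.624).

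Whether the RIG-I agonist acted differently on these genes in the 3 lines was tested directly, as the difference of 2 log2 fold changes in 1 edgeR fit of all 14 libraries with a shared spread. The 3 differences share libraries. CT26 minus E0771 was called for 6 of 54 (background 3.88% of 14657 genes), 2 higher (background 1.06%) and 4 lower (background 2.81%). CT26 minus MC38 was called for 4 (background 3.8%), 2 higher (background 1.98%) and 2 lower (background 1.82%). E0771 minus MC38 was called for 2 (background 2.11%), both higher (background 1.81%). The first count was 3 without CT26 RIG-I agonist replicate 2 or E0771 control replicate 2 and 13 without E0771 control replicate 1. The second was 2 without MC38 control replicate 1. The third was 1 without any 1 of the MC38 libraries, 4 without E0771 control replicate 1 and 5 without E0771 RIG-I agonist replicate 2. For Lama3 the difference was -3.97 for CT26 minus E0771 (SE 0.49, edgeR adjusted p = 0.000563) and -1.84 for CT26 minus MC38 (SE 0.30, adjusted p = 0.00456), the latter lost without MC38 control replicate 1 (0.0536). It was at 8.57, 7.37 and 6.71 CPM in CT26 control and 6.43, 5.69 and 7.12 with the RIG-I agonist, and so was higher there than in the other lines under either agonist.

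Col7a1 fell in MC38 and not in the others: its change in CT26 was -0.06 and in E0771 -0.03, and the difference from MC38 was 1.06 (SE 0.17, edgeR adjusted p = 0.00408) for CT26 and 1.13 (SE 0.18, adjusted p = 0.00395) for E0771. Both held in the alternatives tried, 15 for CT26 minus MC38 and 13 for E0771 minus MC38. Col18a1 was at 168 and 162 CPM in E0771 control and at 168 and 157 with the RIG-I agonist, and its change differed from that of CT26 (-0.58 for CT26 minus E0771, adjusted p = 0.0115) and of MC38 (0.65 for E0771 minus MC38, adjusted p = 0.0156). The second of these was lost without any 1 of the 4 MC38 libraries (adjusted p = 0.0737 to 0.0973). Itga6 changed by -0.30 in CT26 and 0.24 in E0771, a difference of -0.58 (adjusted p = 0.0110). Lamb2 fell by 0.20 in CT26 and stood at -0.94 in E0771, a difference of 0.70 (adjusted p = 0.0194). That call was lost without CT26 RIG-I agonist replicate 2 (0.0517) or E0771 control replicate 2 (0.0663). In a fit of the 2 lines alone, chosen after seeing the data, the CT26 minus E0771 calls were lost for Itga6 (adjusted p = 0.0815), Col18a1 (0.0914), Lamb2 (0.0535) and Col9a3 (0.0688). Col9a3 differed between CT26 and E0771 by 2.7 (adjusted p = 0.0389) and Col6a4 between CT26 and MC38 by 2.97 (adjusted p = 0.0339). Each of these was lost without any of 8 libraries: for Col9a3 each of the 6 CT26 libraries, E0771 control replicate 2 or E0771 RIG-I agonist replicate 1 (adjusted p = 0.0693 to 0.181), and for Col6a4 CT26 control replicate 2 or 3, CT26 RIG-I agonist replicate 1 or 2, or any of the 4 MC38 libraries (0.0713 to 0.155). With E0771 the most variable line and MC38 the least, a shared spread can make p-values too small for E0771 and too large for MC38.

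**Figure D5:**
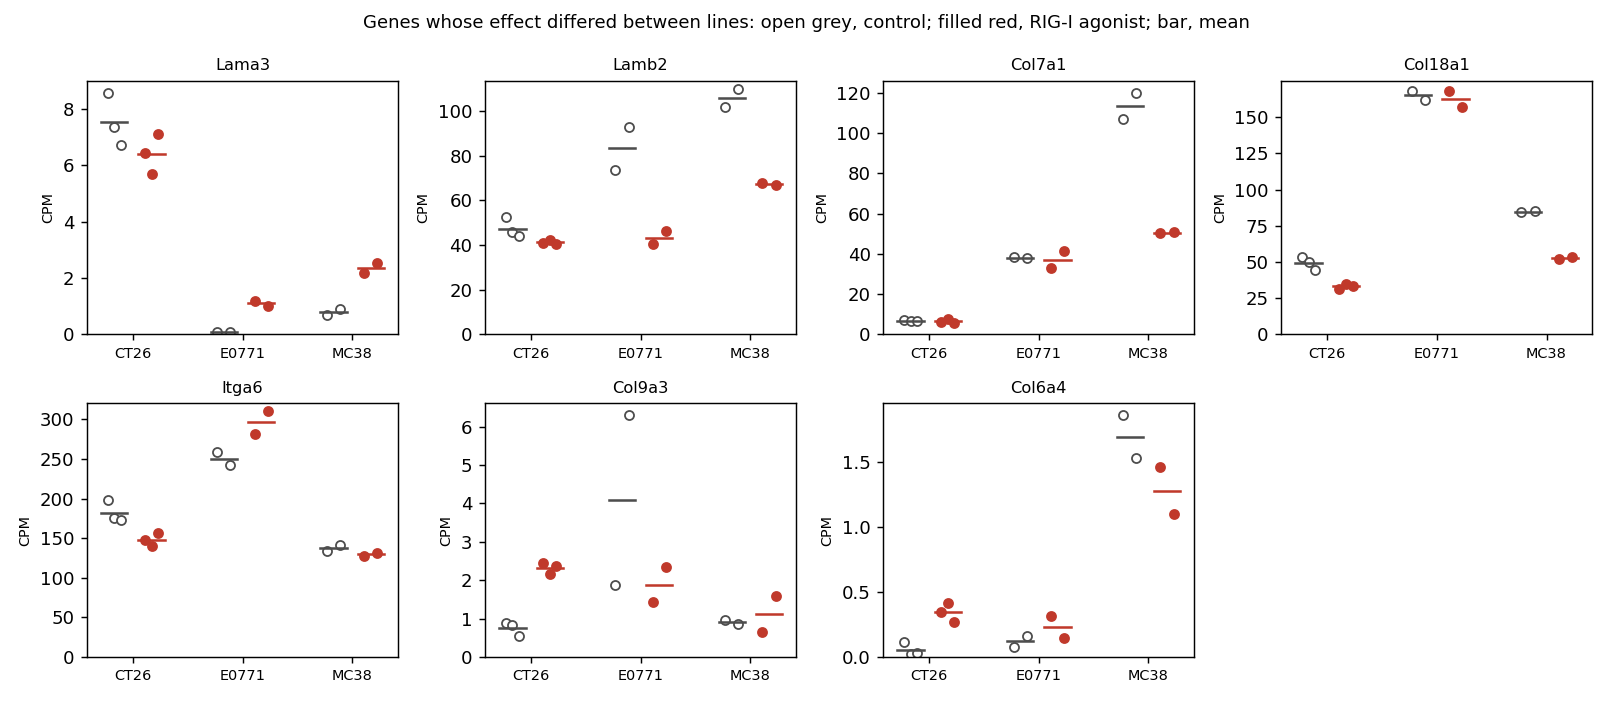
Levels in CPM (vertical axis from 0) of 7 genes whose RIG-I agonist effect differed between lines, by line, with open grey points for control agonist, filled red points for RIG-I agonist and a bar at the mean. Col7a1 falls in MC38, and Lama3 is highest in CT26 under either agonist.

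Genes that process, cut, bind or signal through this matrix were counted from 6 further lists. The shares called over all genes, for comparison, were 19.8% higher and 18.6% lower in CT26 and 18.9% higher and 16.9% lower in MC38. In E0771 they were 1.53% higher and 0.0256% lower. Of 21 collagen processing and cross-linking genes tested in CT26, 9 fell and 3 rose, and of 23 in MC38, 14 fell and 2 rose. Plod2, which hydroxylates collagen lysines for cross-links, fell by 0.63 and 0.61 on the log2 scale (from 65.0 ± 6.71 to 42.0 ± 1.17 CPM in CT26 and 117 ± 0.858 to 76.7 ± 3.47 in MC38). P4ha2, a prolyl hydroxylase subunit, fell by 0.60 in CT26, and Bmp1, which trims procollagen, by 0.44 in MC38. Loxl2, a cross-linking oxidase, rose in CT26 from 1.49 ± 0.582 to 4.58 ± 1.04 CPM (1.61, edgeR adjusted p = 0.000665). Matrix proteases and their inhibitors had 6 higher and 3 lower of 19 in CT26 and 1 higher and 7 lower of 15 in MC38. Plat, tissue plasminogen activator, rose in CT26 from 4.67 ± 0.631 to 9.46 ± 0.350 CPM (1.02) and fell in MC38 from 18.0 ± 0.410 to 6.76 ± 0.701 (-1.39, adjusted p = 1.05e-08). The difference between these effects was not tested for Plat.

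Other matrix glycoproteins and proteoglycans had 6 higher and 7 lower of 22 in CT26 and 0 higher and 10 lower of 16 in MC38. Hspg2, the basement membrane proteoglycan perlecan, fell in MC38 from 368 ± 10.8 to 190 ± 5.20 CPM (log2 -0.95, edgeR adjusted p = 9.07e-15), and Nid1, which links laminin to type IV collagen, fell by 0.47 in CT26. Fbln2 fell in CT26 from 298 ± 20.2 to 182 ± 2.59 CPM (-0.71), and Ccn1, a matricellular integrin ligand, rose there from 194 ± 10.8 to 337 ± 13.6 (0.80, adjusted p = 2.95e-07). Of other matrix receptors, 2 rose and 4 fell of 9 in CT26 and 2 rose and 9 fell of 11 in MC38. Dag1, the laminin receptor dystroglycan, fell by 0.54 in CT26 and 0.62 in MC38. Cd47, a thrombospondin receptor and integrin partner, was the 1 gene of these lists that was called in all 3 lines, rising from 107 ± 9.53 to 155 ± 1.26 CPM in CT26 (0.54), 51.1 ± 6.00 to 131 ± 12.8 in E0771 (1.36, adjusted p = 0.0251) and 85.8 ± 0.527 to 174 ± 2.92 in MC38 (1.01). It was also the 1 gene of the 6 lists called in E0771, where only 1.56% of all genes were called.

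The adhesion machinery on the inner side of integrins had 5 higher and 14 lower of 29 in CT26 and 5 higher and 6 lower of 24 in MC38, with a median log2 fold change of -0.15 and -0.05. Vcl, vinculin, fell by 0.49 in MC38 (edgeR adjusted p = 4.61e-09), and Zyx, zyxin, rose by 0.47 in CT26 and 0.29 in MC38. TGF-beta pathway genes had 5 higher and 5 lower of 19 in CT26 and 3 higher and 4 lower of 19 in MC38, with medians of -0.08 and 0.01, so as a list they had no common direction. Ltbp3 and Ltbp4, which bind latent TGF-beta to the matrix, fell in both lines: Ltbp4 from 81.7 ± 12.8 to 39.4 ± 2.45 CPM in CT26 (-1.05) and 166 ± 6.73 to 104 ± 1.25 in MC38 (-0.67), and Ltbp3 by 0.56 and 0.95. Ltbp1 rose in MC38 (0.56, adjusted p = 2.48e-11). In E0771 the 5 other lists had no call among the genes edgeR tested (20 collagen processing genes, 14 proteases and inhibitors, 17 glycoproteins, 27 adhesion genes and 16 TGF-beta genes). These lists were drawn up with earlier results of the same data known and are no independent evidence of a direction.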

How the data were processed

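Poly(A)+ RNA was sequenced from stranded libraries, per the labels. The authors deposited 1 table of estimated counts per gene for each line, and Salmon, DESeq2 and GRCm38 are named in the submitters' processing notes. Trimming, annotation release and strand setting are not given in the sources used here. Estimated counts were rounded to whole numbers. In the CT26, E0771 and MC38 tables, 0 columns belonged to other samples. Of 34866 identifiers, 32644 matched GENCODE M21 with their version, 34652 without it, and 214 did not match.

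Genes were kept by filterByExpr (minimum count 10), and edgeR 4.0.16 (R 4.3.3) was run with TMM scaling and its robust quasi-likelihood F test within each line, with Benjamini-Hochberg adjustment over all genes tested and a threshold of 0.05. Differences between lines came from 1 fit of 14 libraries in 6 groups. Within a line, CPM were taken over library sizes scaled by TMM. Fold changes use a prior count of 0.125, and the floor was 3 counts over a group. Intervals of count ratios are exact 95% intervals and cover counting error only. DESeq2 1.42.0, its size factors, no filter, a replicate block, 1 fit of all libraries and leaving out each library were alternatives. The fits were tested on simulated data. Of simulated 2-fold changes, edgeR recovered 85.6% in CT26, 45.9% in E0771 and 89.9% in MC38. False calls were 2.8%, 13.8% and 6.2% of its calls in the same order. Python 3.11.15, pandas 2.3.3, scipy 1.17.1 and matplotlib 3.10.9 were also used.

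In CT26, deviations of same-numbered control and RIG-I agonist libraries from their group means correlated at 0.143, 0.179 and 0.310 across genes. Every value was above 0.1, the level set for pairing, although control 1 with RIG-I agonist 2 reached 0.152 and control 2 with RIG-I agonist 1 reached 0.088. The block changed no CT26 call count (33). The main fits used no block in any line.

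The members and lists were chosen with earlier results of these data known. Named were Fn1, in each line up to 15 called members per direction with the largest change, the member of each role group with the highest control level per kb, up to 8 per difference of effects and 10 per control comparison, and up to 4 called genes per pathway list. Other members are named to account for the set, and some results are not reported here.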

Additional observations from a re-analysis of the deposited data

Results flagged for a closer look

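The effect of the RIG-I agonist was called different between lines, by edgeR's test of the difference itself, for the genes named here. As CT26 minus E0771 on the log2 scale these were Lama3 (-3.97), Col9a3 (2.7), Lamb2 (0.70), Itga6 (-0.58) and Col18a1 (-0.58). As CT26 minus MC38 they were Col6a4 (2.97), Lama3 (-1.84) and Col7a1 (1.06). As E0771 minus MC38 they were Col7a1 (1.13) and Col18a1 (0.65). Lama3 against E0771 and Col6a4 rest on libraries with 1 to 4 counts in a control group. The calls for Col9a3, Lamb2, Col6a4, Lama3 against MC38 and Col18a1 against MC38 were each lost without certain single libraries. In a fit of the 2 lines alone, chosen after seeing the data, the CT26 minus E0771 calls named here were lost except that of Lama3.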

How the results depend on the processing

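The 30 control level differences named kept direction and call in 290 of 290 alternative values. The 69 results named within a line include genes that were not called, as in E0771, so not all of them could lose a call. Of these results, DESeq2's size factors left 69 of 69 as they were, DESeq2 64 and no filter 67 of 69, and leaving out 1 library 313 of 332 values. In 1 fit of all 14 libraries 20 of the 69 results lost their call and 3 gained one, and 14 members were called in MC38 and 8 in E0771. In E0771, where DESeq2 called 3 members and an unfiltered fit 1, leaving out a library gave 0 to 1. Leaving out a library gave 29 to 33 members in CT26, 28 to 29 in MC38, and for differences of effects 3 to 13 (CT26 minus E0771), 2 to 4 (CT26 minus MC38) and 1 to 5 (E0771 minus MC38). A fit of the 2 lines compared alone, chosen after seeing the data, called 1 and 13 members for the first 2 of these. The cause was not tested.

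With the replicate block E0771 had 16 calls (4 higher and 12 lower), MC38 31, and the differences of effects 14, 9 and 6. Same-numbered libraries correlated at 0.700 in E0771 and -0.007 in MC38, from only 2 pairs each. The E0771 value was also above 0.1, the level set for pairing, and the main E0771 fit, which called 0 members, used no block.

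Directions turned without E0771 control replicate 1 or RIG-I agonist replicate 2 for Col18a1 (0.00 and 0.02, range -0.07 to 0.02 over the libraries left out), Itgb7 (1.11 and 0.49, range -1.64 to 1.11) and Itgb1 (0.15 and 0.11, range -0.25 to 0.15), none called, and for Col8a1 in MC38 without control replicate 2 (0.03) or RIG-I agonist replicate 1 (0.02, range -0.08 to 0.03). With 2 libraries a group in E0771 and MC38 and 12347361 to 18964563 counts, genes of a few counts cannot show a modest change.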
